A study of Malus domestica with 15 samples.

Results

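A set of 134 apple loci kept a similar transcript level in the fruit skin between harvest and 2 months of cold storage and was then lower in untreated fruit after 7 days of shelf life, while fruit treated with 1-methylcyclopropene (1-MCP) showed no such step over the same days. The members were chosen on the measured values themselves, among loci that carry an apple gene model (an MDP identifier), have no value of 0 and average at least 1 FPKM (sequenced fragments relative to transcript length and to the total mapped in a library). With differences taken on log2(FPKM + 1), a member is at least 2 lower in shelf-life control fruit than in control fruit straight from the cold. It also differs by less than 1 between harvest and cold-stored control fruit, and by less than 1 between 1-MCP fruit before and after shelf life. Of the 80965 loci in the table, 30310 could have met these limits and 134 did. The labels describe RNA from the skin of apple (Malus domestica) in 15 samples, 3 biological replicates for each of 5 groups. Fruit at harvest (T0) were untreated and not stored. Control fruit were sampled after 2 months of cold storage (T2_CTRL) and after a further 7 days of shelf life (T2+7_CTRL). The 1-MCP groups (T2_MCP and T2+7_MCP) followed the same schedule after exposure to 0.7 µl/L of the gas. The sources used here name neither the cultivar nor the storage temperature.

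Apple is a climacteric fruit, in which ripening goes with a burst of ethylene production. Ethylene binds receptors that otherwise keep the downstream pathway switched off, and the released signal reaches transcription factors that turn ripening genes up or down. The gas 1-MCP occupies the same receptors and keeps the fruit from responding to its own ethylene. Superficial scald, the disorder named in the series title, is a browning of the skin whose symptoms typically develop when fruit leave the cold, and 1-MCP is used against it.

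The table holds 1 FPKM value per locus and group, so no spread between replicates is known and every difference below is a description without a test, an SD or a replicate check. The headers do not say how the 3 libraries of a group were combined, and library depth is unknown. No identifier is paired with a gene name, so neither the role of a member nor the skin markers of the tissue could be read. In whole skin, fewer cells of a type and less RNA per cell cannot be told apart. The columns differ in general level: the median log2 difference of the 30310 eligible loci was -0.24 over shelf life in control fruit, -0.13 in 1-MCP fruit, and 0.23 between 1-MCP and control fruit after shelf life. After scaling each column by its 75th percentile these medians were -0.08, -0.02 and 0.08.

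By the limits of the selection, every member was at least 2 log2 units lower over shelf life in control fruit. The median member stood at 35.4 FPKM at harvest, 35.4 FPKM in cold-stored control fruit and 4.77 FPKM in the same treatment after shelf life. With 1-MCP the medians were 25.5 FPKM after cold storage and 20.1 FPKM after shelf life. Control fruit after shelf life therefore held the lowest of the 5 medians. The value after shelf life was between 0.329% and 24.0% of the value after cold storage, with a median of 14.2%, where the median of all eligible loci was 81.7%. The median log2 difference was -2.48, and 116 members lay between -2 and -3, 8 between -3 and -4, and 10 at -4 or beyond. Because these values chose the members, they are given as a description and nothing is read from them.

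Among the 30310 eligible loci, 418 (1.38%) were at least 2 lower over shelf life in control fruit. Of these, 208 had changed by less than 1 from harvest to cold storage, 248 changed by less than 1 over shelf life in 1-MCP fruit, and the 134 members met both limits, which is 0.442% of eligible loci. Counted among the 23548 loci that met the 2 limits on steadiness, the members made up 0.569%. The mirror image, a control-only rise of at least 2, was met by 34 loci, or 0.144% of the same 23548. With the treatments exchanged, 37 of 23495 loci (0.157%) were at least 2 lower over shelf life in 1-MCP fruit and steady otherwise. Among 11977 unannotated assembled loci, which are no members, 33 (0.276%) met the same limits. A control-only lower value was thus the most frequent of the 3 patterns in loci with a gene model, in the values as deposited. The difference between the counts was not tested, and the columns differ in general level as given above. The control-only rise and the exchanged pattern were not counted again with scaled columns.

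**Figure D1:**
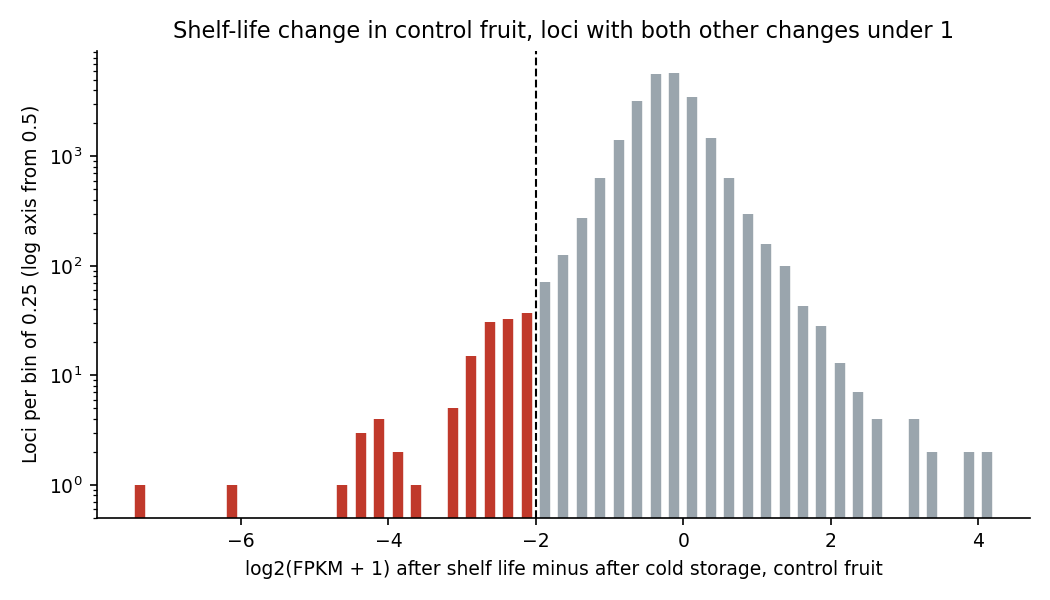
Number of loci (log axis) by log2(FPKM + 1) difference between control fruit after shelf life and after cold storage, in bins of 0.25, for the 23548 loci steady from harvest to cold storage and in 1-MCP fruit over shelf life. The dashed line marks -2, the red bars left of it are the 134 members, and most of them lie within 1 of that limit.

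The largest difference belonged to MDP0000138500, which stood at 463 FPKM at harvest, 404 FPKM in cold-stored control fruit and 1.33 FPKM in control fruit after shelf life, against 129 and 124 FPKM in 1-MCP fruit before and after shelf life. Its log2 difference over shelf life was -7.44, a 304-fold lower FPKM value. The 1-MCP values were level over shelf life but lay below harvest. CUFF.45372 (MDP0000670959) had 2306 FPKM at harvest, 1355 FPKM after cold storage and 19.9 FPKM after shelf life in control fruit, and 2319.9 and 3891 FPKM in 1-MCP fruit. Here the difference was -6.02, and the 1-MCP value after cold storage was close to that of harvest. CUFF.11107 (MDP0000277088) had 71.9, 54.8 and 1.16 FPKM at harvest and at the 2 control times, and 46.2 and 35.7 FPKM with 1-MCP, a log2 difference of -4.69 over control shelf life. All of its values other than that of control fruit after shelf life lay within 1 log2 unit of each other.

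MDP0000273257 hardly differed between harvest and cold-stored control fruit, at 51.5 FPKM at harvest, 51.3 and 1.69 FPKM in control fruit, and 27.4 and 19.5 FPKM in 1-MCP fruit (-4.28). MDP0000362571 had 608 FPKM at harvest, 646 and 32.9 FPKM in control fruit, and 525 and 308 FPKM in 1-MCP fruit (-4.26). MDP0000324681 had 324 FPKM at harvest, 343 and 17.2 FPKM in control fruit, and 266 and 167 FPKM in 1-MCP fruit (-4.24). The last pair ran nearly parallel in all 5 groups, at different levels.

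In CUFF.30725 (MDP0000681724) the values were 152 FPKM at harvest, 212 and 12.3 FPKM in control fruit, and 82.3 and 92.0 FPKM in 1-MCP fruit (-4.01). It was the last of the 6 loci among the 12 largest differences whose 1-MCP value after cold storage lay within 1 log2 unit of harvest. In the other 6, which include MDP0000138500, that value was at least 1 lower than at harvest. MDP0000629887 went from 68.1 FPKM at harvest to 60.2 and 2.60 FPKM in control fruit and 17.3 and 20.3 FPKM in 1-MCP fruit (-4.09). MDP0000290620 had 73.5 FPKM at harvest, 37.2 and 1.44 FPKM in control fruit, and 28.7 and 21.9 FPKM with 1-MCP (-3.97). CUFF.2908 (MDP0000341666) had 92.4 FPKM at harvest, 131 and 7.79 FPKM in control fruit, and 39.9 and 36.9 FPKM with 1-MCP (-3.91). In these 3 loci the 1-MCP values lay between those of control fruit after cold storage and after shelf life.

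Of the 12, the remaining 2 are the only members that carry 2 gene models each, and in both the 1-MCP values were already near the low control value. CUFF.36964 (MDP0000323123 and MDP0000210970) had 55.7 FPKM at harvest, 31.7 and 0.663 FPKM in control fruit, and 1.64 and 0.821 FPKM in 1-MCP fruit (-4.30). CUFF.14251 (MDP0000351033 and MDP0000280952) had 259 FPKM at harvest, 480.5 and 26.8 FPKM in control fruit, and 35.0 and 33.3 FPKM in 1-MCP fruit (-4.12). For these loci the steadiness over shelf life in 1-MCP fruit was that of an already low value.

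**Figure D2:**
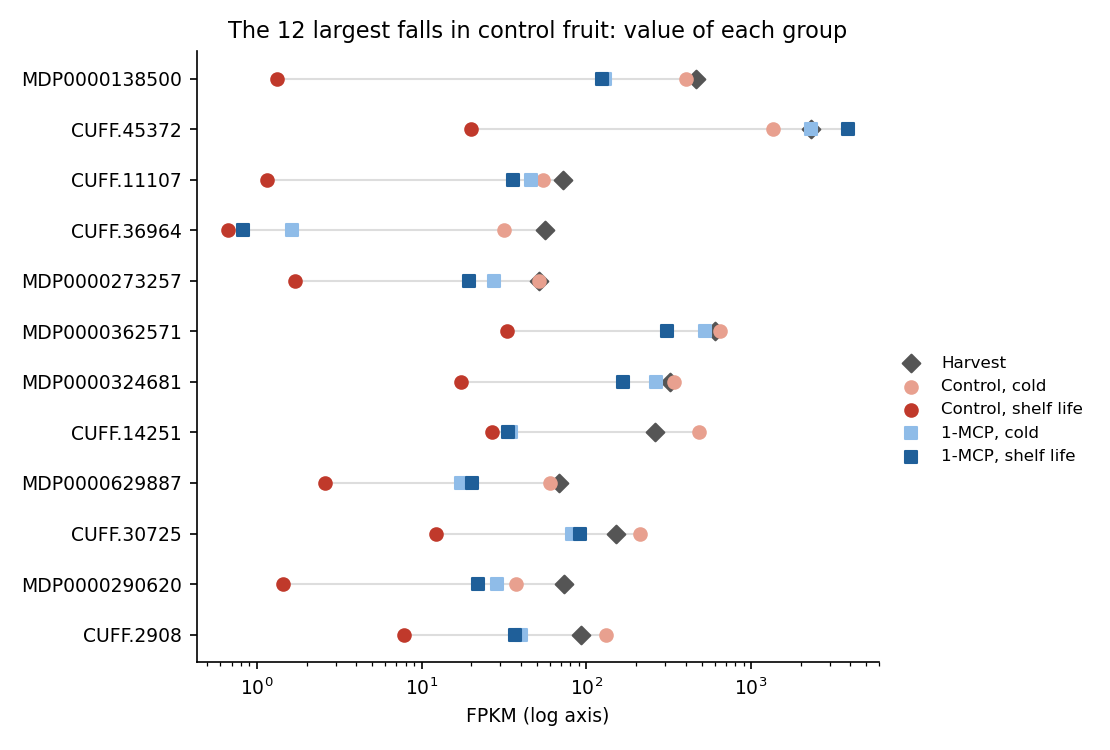
FPKM (log axis) of the 12 members with the largest difference over shelf life in control fruit, 1 point for each of the 5 groups. The red circle (control after shelf life) is the lowest point in all 12 rows, and in CUFF.36964 and CUFF.14251 the squares of 1-MCP fruit lie beside it.

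By level in cold-stored control fruit, 28 members were below 10 FPKM, 73 between 10 and 100 FPKM, and 33 at 100 FPKM or more. All eligible loci had a median of 9.79 FPKM and an upper quartile of 27.9 FPKM there. The limits favour high values in this group. After shelf life 26 members (19.4%) were below 1 FPKM in control fruit, a share that was not counted for all eligible loci. The lower quartile there was 1.36 FPKM in the members and 2.69 FPKM in all eligible loci. The limits favour low values in control fruit after shelf life. MDP0000179031 had the highest value in cold-stored control fruit, with 4104 FPKM at harvest, 3199 and 757 FPKM in control fruit, and 4049 and 3687 FPKM in 1-MCP fruit. CUFF.38218 (MDP0000302312) had 1775 FPKM at harvest, 2373 and 543 FPKM in control fruit, and 9879 and 5230.45 FPKM in 1-MCP fruit. CUFF.45578 (MDP0000245693) had 1058 FPKM at harvest, 1335 and 223 FPKM in control fruit, and 363 and 286 FPKM in 1-MCP fruit. These 3 loci had like differences over control shelf life (-2.08, -2.13 and -2.58), yet 1-MCP fruit after cold storage was level with harvest in the first, higher in the second and lower in the third. With CUFF.45372 they are the 4 members at 1000 FPKM or more in cold-stored control fruit.

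The limits set no bound on the difference between 1-MCP fruit and harvest, although they use the harvest value: a member must be high in cold-stored control fruit and harvest must lie near it, so high harvest values favour membership. The shares below are also not matched for level, since the median member stood at 35.4 FPKM in cold-stored control fruit and the median of the 23548 steady loci at 10.2 FPKM. They are given as a description. In 1-MCP fruit after cold storage, 85 members lay within 1 log2 unit of harvest, 43 were at least 1 lower and 6 at least 1 higher. The 43 are 32.1% of the members, where 9.63% of all eligible loci and 4.21% of the 23548 steady loci were at least 1 lower. The 6 are 4.48% of the members, beside 5.12% of eligible and 3.27% of steady loci, a share near the background. The median log2 difference between 1-MCP fruit after cold storage and harvest was -0.41 over the members and -0.05 over all eligible loci. The classes are ranges and not separate kinds: 25 members lay within 0.25 of the lower class limit and 6 within 0.25 of the upper one.

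**Figure D3:**
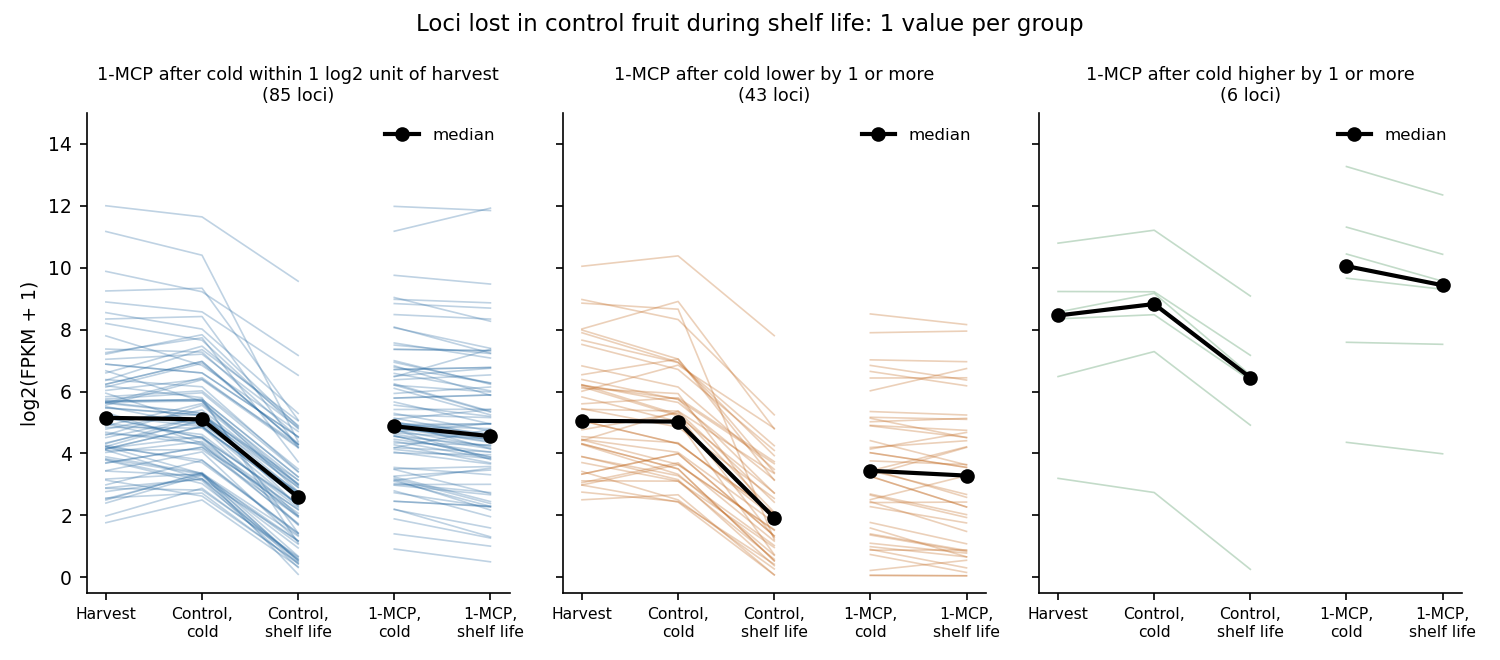
log2(FPKM + 1) of the 134 members in the 5 groups, divided by the 1-MCP value after cold storage against harvest. Thin lines are loci, black points and lines are medians, and the 1-MCP groups are joined to each other only. The 3 panels share the low point of control fruit after shelf life and differ in how far 1-MCP fruit lies from harvest.

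In the 85 members near harvest, the median was 34.6 FPKM at harvest, 33.4 and 5.00 FPKM in control fruit, and 28.4 and 22.6 FPKM in 1-MCP fruit. Control fruit after shelf life was the low group. The steadiest were MDP0000557254 and MDP0000864658. The first had 50.4 FPKM at harvest, 52.6 and 8.48 FPKM in control fruit, and 54.3 and 58.2 FPKM in 1-MCP fruit. Its 4 values outside control shelf life spanned 0.21 log2 units. MDP0000864658 had the same deposited value as MDP0000557254 in 2 groups and differed by at most 0.379% in the others, so the pair is uncertain as 2 separate measurements. CUFF.35316 (MDP0000707036) had 8.02 FPKM at harvest, 9.16 and 0.0685 FPKM in control fruit, and 8.64 and 10.04 FPKM in 1-MCP fruit. CUFF.25902 (MDP0000200847) had 15.4 FPKM at harvest, 19.9 and 3.53 FPKM in control fruit, and 19.3 and 18.3 FPKM in 1-MCP fruit. In both loci, as in MDP0000179031, the other 4 groups spanned less than 0.4 log2 units. Over the whole set, 54 of 134 members (40.3%) had 4 other values within 1 log2 unit of each other, beside 64.2% of eligible and 82.7% of steady loci.

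The 43 members that were lower with 1-MCP after cold storage had medians of 32.3 FPKM at harvest, 31.7 and 2.79 FPKM in control fruit, and 9.87 and 8.75 FPKM in 1-MCP fruit. Their 1-MCP medians thus lay between the control values before and after shelf life. MDP0000125095 lay farthest from harvest, at 42.1 FPKM there, 40.4 and 9.23 FPKM in control fruit, and 0.835 and 0.843 FPKM in 1-MCP fruit, a log2 difference of -4.55 between 1-MCP fruit after cold storage and harvest. For CUFF.36964 this difference was -4.43, from the values given above. CUFF.33981 (MDP0000209507) had 113 FPKM at harvest, 69.8 and 10.2 FPKM in control fruit, and 12.6 and 11.5 FPKM in 1-MCP fruit (-3.07). CUFF.19363 (MDP0000124524) and CUFF.2593 (MDP0000119517) share 1 set of values, 9.07 FPKM at harvest, 14.9 and 1.53 FPKM in control fruit, and 0.0445 and 0.0345 FPKM in 1-MCP fruit (-3.27). In MDP0000125095, CUFF.19363 and CUFF.2593 cold-stored 1-MCP fruit lay below control fruit after shelf life, and in CUFF.36964 and CUFF.33981 it lay above it by less than 1 log2 unit.

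The 6 members that were higher with 1-MCP after cold storage included CUFF.38218, whose log2 difference from harvest was 2.48. MDP0000225472 had 325 FPKM at harvest, 357 and 81.5 FPKM in control fruit, and 1392 and 757 FPKM in 1-MCP fruit (2.09). MDP0000513191 had 601 FPKM at harvest, 597 and 143 FPKM in control fruit, and 2543 and 1384 FPKM in 1-MCP fruit (2.08). The 2 MDP loci kept nearly the same ratio to each other in all groups. CUFF.26027 (MDP0000139525) had 8.17 FPKM at harvest, 5.67 and 0.195 FPKM in control fruit, and 19.5 and 14.9 FPKM in 1-MCP fruit (1.16). CUFF.27050 (MDP0000338528) had 88.6 FPKM at harvest, 156 and 29.2 FPKM in control fruit, and 192 and 183 FPKM in 1-MCP fruit (1.11). The sixth, MDP0000341326, is named after its values were seen and had 378 FPKM at harvest, 576 and 91.9 FPKM in control fruit, and 809.5 and 631 FPKM in 1-MCP fruit. In all 6 the highest value of the 5 groups was that of 1-MCP fruit after cold storage.

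Between the treatments at the end of cold storage, 37 members were at least 1 lower with 1-MCP (27.6%, beside 8.03% of eligible and 3.84% of steady loci) and 7 at least 1 higher (5.22%, beside 8.9% and 3.7%). The median log2 difference was -0.30, and 0.09 over all eligible loci. At this time, before the control-only step, 1-MCP fruit had the lower value in 90 members (67.2%, beside 42.9% of eligible and 43.4% of steady loci) and the higher value in 44. The comparison shares the cold-stored control column with the limits that chose the members, and high values in that column favour membership.

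After shelf life 1-MCP fruit was at least 1 higher than control fruit at 101 members (75.4%, beside 12.7% of eligible and 7.78% of steady loci), within 1 at 28 and at least 1 lower at 5 (3.73%, beside 8.37% and 4.71%). The median log2 difference was 2.07, against 0.23 over all eligible loci. This comparison contains the low control column that chose the members, so no more is read from it than its spread. The 101 were 74 of the 85 members near harvest, 21 of the 43 lower ones and all of the 6 higher ones. The limits fix part of this split. A member of the higher class must be at least 1 higher than control fruit after shelf life. A member near harvest cannot be at least 1 lower there. The largest difference was at CUFF.45372 (7.54), followed by MDP0000138500 (5.75). The 5 members at which 1-MCP fruit was at least 1 lower, named after their values were seen, were MDP0000125095 (-2.47), MDP0000635152 (-1.60), CUFF.19363 and CUFF.2593 (both -1.29) and CUFF.36297 (-1.01). MDP0000635152 had 20.4 FPKM at harvest, 40.1 and 4.38 FPKM in control fruit, and 1.58 and 0.777 FPKM in 1-MCP fruit. CUFF.36297 (MDP0000507001) had 7.31 FPKM at harvest, 11.99 and 1.25 FPKM in control fruit, and 0.665 and 0.115 FPKM in 1-MCP fruit. For these 5 loci the low transcript level of shelf life was not confined to control fruit, and 1-MCP fruit lay below it.

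**Figure D4:**
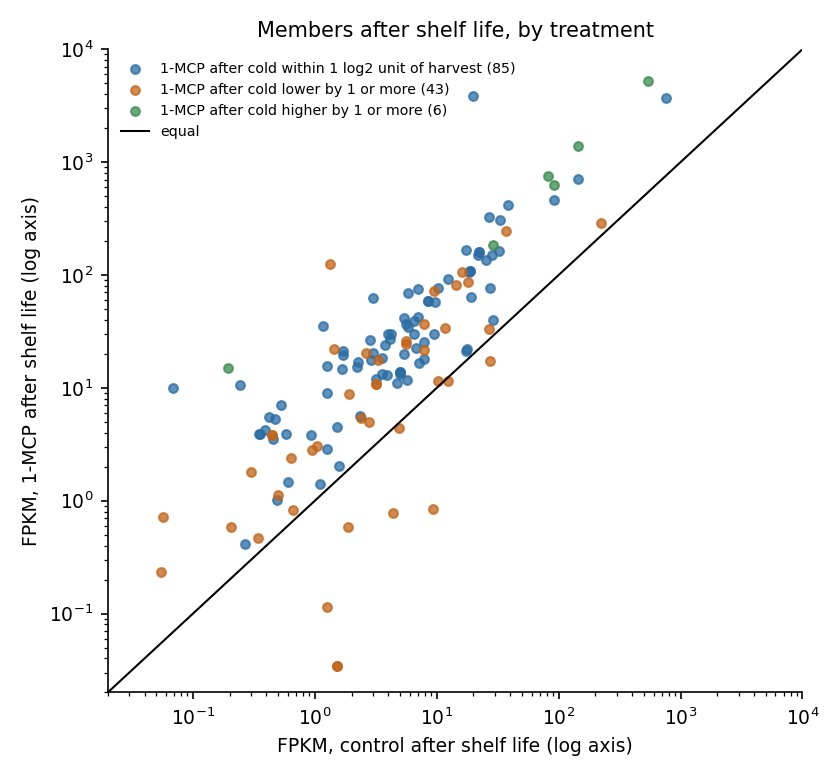
FPKM of the 134 members after shelf life in control fruit (horizontal, log axis) and 1-MCP fruit (vertical, log axis), coloured by the 1-MCP value after cold storage against harvest. The line marks equal values: 125 members lie above it and 9 below, and most of the points near or under the line are of the 43 members that were lower with 1-MCP. The limits themselves keep members of the other classes from being at least 1 log2 unit lower in 1-MCP fruit.

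After shelf life 56 members were at least 1 lower in 1-MCP fruit than at harvest (41.8%, beside 12.2% of eligible and 5.81% of steady loci) and 5 at least 1 higher (3.73%, beside 3.09% and 2.11%). The median log2 difference was -0.77, and -0.16 over all eligible loci. In control fruit after shelf life the members' median difference from harvest was -2.66, and all 134 were at least 1 lower than at harvest (beside 20.4% of eligible loci), as the limits require. The 5 higher members, chosen after their values were seen, were CUFF.38218, MDP0000225472, MDP0000513191, CUFF.27050 and MDP0000221771, the last with 81.3 FPKM at harvest, 163 and 32.3 FPKM in control fruit, and 88.1 and 164 FPKM in 1-MCP fruit. A value at or above that of harvest was seen in 1-MCP fruit after shelf life at 31 of the 134 members (23.1%, beside 37.7% of eligible and 40.1% of steady loci). This comparison also shares the harvest column with the limits. Over shelf life itself the 1-MCP value was higher after than before at 31 members, again 23.1%, beside 34.9% of eligible loci. The members' median log2 difference over shelf life in 1-MCP fruit was -0.36, beside -0.13 over eligible and -0.12 over steady loci. Most members were thus somewhat lower in 1-MCP fruit too, within the limit of 1.

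Members were not all separate measurements. The 134 loci held 128 distinct sets of 5 values, because 6 pairs of loci with different identifiers had identical values in every group. The 12 members in these pairs are 8.96% of the members. Such sharing was not limited to the members, but 852 of the 30310 eligible loci, a smaller share, had the values of another eligible locus. Besides CUFF.19363 with CUFF.2593, the pairs were CUFF.13125 with CUFF.22989, CUFF.28783 with CUFF.45373, MDP0000526678 with MDP0000718537, MDP0000376384 with MDP0000614622, and MDP0000697378 with MDP0000866082. CUFF.13125 and CUFF.22989 had 117 FPKM at harvest, 96.2 and 22.3 FPKM in control fruit, and 164 and 159 FPKM in 1-MCP fruit. How reads that match several near-identical loci were divided is not stated in these sources, so these members are uncertain as separate loci.

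Other members ran parallel at different levels. Taking 2 members as parallel when the log2 ratio of their FPKM values spanned less than 0.3 over the 5 groups, a limit chosen after the values were seen, 41 of 8911 pairs were parallel, the 6 identical pairs included. They joined 50 members into 20 sets, linked through shared partners, so 2 loci of a set need not be parallel to each other. A count for other loci is not given. The largest held 6 loci with 5 distinct profiles, among them CUFF.48453 with 69.7 FPKM at harvest, 119.6 and 19.1 FPKM in control fruit, and 95.1 and 64.0 FPKM in 1-MCP fruit. The next held MDP0000610902, MDP0000077392, MDP0000309240 and MDP0000054178, of which MDP0000610902 had 165 FPKM at harvest, 154 and 21.9 FPKM in control fruit, and 270.3 and 150.4 FPKM in 1-MCP fruit. A set of 3 held CUFF.30080, CUFF.17981 and CUFF.17976, whose highest value in each case was that of 1-MCP fruit after cold storage. CUFF.30080 had 374 FPKM at harvest, 258 and 38.2 FPKM in control fruit, and 458 and 414 FPKM in 1-MCP fruit. All members share the limits of the selection, which makes their profiles alike by construction. Whether parallel loci are copies of each other was not tested.

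The members were split evenly between the 2 kinds of identifier, 67 assembled loci with a gene model and 67 gene models without an assembled locus. The second kind made up 22.4% of eligible loci. In other terms, 0.985% of the gene models without an assembled locus met the limits and 0.285% of the assembled loci. A difference of at least 2 over control shelf life, with no limit on the other groups, was also more frequent in the first (3.23%) than in the second (0.842%). The median levels of both kinds of member were close, at 37.0 FPKM in cold-stored control fruit and 4.38 FPKM after shelf life for the gene models, and 31.7 and 4.85 FPKM for the assembled loci.

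Near the limit of -2 the loci inside and outside differed little. The 3 members nearest to it were MDP0000838190 (-2.00, from 8.05 to 1.26 FPKM), MDP0000348707 (-2.01, from 17.4 to 3.58 FPKM) and MDP0000125095 (-2.02). Just outside were MDP0000184866 (from 3.76 to 0.195 FPKM), CUFF.25252 (MDP0000455174, from 11.8 to 2.22 FPKM) and MDP0000248822 (from 5.95 to 0.751 FPKM), all at -1.99. MDP0000184866 was 19.3-fold lower in FPKM, and its log2 difference was -3.71 when 0.1 in place of 1 was added before the logarithm.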

How the data were processed

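The deposited table gives FPKM values for 80965 loci, 1 column per group, written with decimal commas. The authors' tools were TopHat2, Cufflinks and Cuffdiff, per the submitters' processing notes. Versions, genome build, annotation and the way a group's 3 libraries were combined are not stated there. Per the labels' protocols the libraries were non-directional and read as 100 bp reads, so a gene and its antisense partner cannot be separated. Columns were matched to groups by name. The header for 1-MCP fruit after shelf life does not name the unit, unlike the others, and its values were taken as FPKM. Differences were taken on log2(FPKM + 1) with Python 3.11.15, numpy 2.4.6 and pandas 2.3.3. With 1 value per group no test, SD or interval was computed, and a difference of at least 1 is a rule of size. Of the loci with a gene model, 31986 averaged below 1 FPKM, and a further 543 were left out because a group is listed at 0, which can be a failed estimate. The RefSeq gene table given matched 0 of the 63541 MDP identifiers, so no gene list or marker list was filled and no sequence is shown.

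The members, the lists of named loci and the alternatives were chosen with earlier results of these data known. Named members are the 12 with the largest difference over control shelf life, the 5 most abundant, the 5 highest and 5 lowest in 1-MCP fruit after cold storage against harvest, the 5 steadiest, those with several gene models, and the 3 nearest to the limit on each side. Others were chosen after their values were seen, which includes the loci named from the identical pairs and from the parallel sets. Alternatives were 75th percentile scaling, trimmed mean scaling (30% of the log ratios left out on either side), quantile normalization, pseudocounts of 0.1, 0.5 and 5, other filters and other limits. How the selection behaves under the spread between replicates was not tested, since there is 1 value per group.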

Additional observations from a re-analysis of the deposited data

Results flagged for a closer look

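At 31 of the 134 members shelf life went with a lower value in control fruit but a higher one with 1-MCP. The lower control value comes from the selection and holds for all 134, so the count says only which members were higher with 1-MCP, by any amount. They are 23.1% of the members, beside 34.9% of all eligible loci whose 1-MCP value was higher after shelf life. The difference between treatments was not tested, since there is 1 value per group, and by the limits of the selection the 1-MCP change is below 1 log2 unit. The largest, named after the values were seen, were CUFF.30075 (MDP0000299310), at 8.86 and 17.3 FPKM in 1-MCP fruit and 115 and 27.1 FPKM in control fruit before and after shelf life, and MDP0000221771 (both 0.89 on the log2 scale in 1-MCP fruit).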

How the results depend on the processing

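No paired analysis was possible because values per replicate are not among the data used, and for the same reason no replicate was left out. The 134 members became 120 with 75th percentile scaling, 116 with trimmed mean scaling and 110 with quantile normalization, of which 101, 96 and 94 were among the 134. A pseudocount of 0.1 gave 227 loci and one of 5 gave 64, of which 113 and 54 were among the 134. A limit of 1.5 gave 333 loci, a limit of 3 gave 18, and other changes within 0.5 gave 31. Assembled loci alone gave 67 and unannotated loci 33. These last 5 differ by construction, since the limits or the loci counted differ. The other 5 counts, 176 with a pseudocount of 0.5 (124 of them among the 134), 134 with no filter on the mean, 119 at a mean of at least 5 FPKM, 147 with loci listed at 0 kept and 128 with identical loci counted as 1, lay within 1.5 times. The members' median difference between 1-MCP and control fruit after shelf life was 1.38 with a pseudocount of 5 and stayed between 1.82 and 2.38 otherwise. The other 27 of 28 medians moved by less than 1.5-fold, and none changed sign. With the members held fixed, those at least 1 lower in 1-MCP fruit after cold storage than at harvest numbered 36 to 43 over the 3 scalings. Of 192 values of named loci, 27 moved by over 1.5-fold, all with a changed pseudocount, and 0 had another sign. Smaller moves still took named members short of the limit of -2. With 75th percentile and trimmed mean scaling, MDP0000179031 stood at -1.89 and -1.85 and CUFF.38218 at -1.94 and -1.9. MDP0000225472 (-1.93 and -1.89) and MDP0000513191 (-1.86 and -1.83) moved likewise. With quantile normalization these loci stood at -2.26, -2.18, -2 and -2.08, in the same order. MDP0000125095, MDP0000348707 and MDP0000838190 fell short with all 3 scalings, and CUFF.25902 with quantile normalization (-1.93). A pseudocount of 5 also left CUFF.35316 (-1.48), CUFF.25902 (-1.55), CUFF.26027 (-1.04), and CUFF.19363 and CUFF.2593 (both -1.61) short of it. The 3 members nearest to the limit were short there too. The 12 largest differences stayed beyond -2. With unknown depth, the precision of values below 1 FPKM cannot be given.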

Other observations

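Beyond the 134 members, 13 loci with a gene model met the limits but are listed at 0 in at least 1 group and were not counted. With the treatments exchanged, 8 loci were at least 2 higher over shelf life in 1-MCP fruit and steady otherwise, beside the 37 that were lower.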
